A study of Gallus gallus with 41 samples.

Results

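The Argonaute and Dicer genes were followed through 41 single cells from embryonic chick retinas. Members were the probe sets whose platform gene symbol is AGO1, AGO2, AGO3, AGO4 or DICER1, with EIF2C1 to EIF2C4 read as older names of the Argonautes. The rule found 7 of 38535 probe sets, covering 4 of the 5 genes: AGO1 had 1 probe set, AGO3, AGO4 and DICER1 had 2 each, and AGO2 was not analysed here because no probe set carried its symbol. AGO4 was chosen because earlier results on these cells had it on at embryonic day 6 (E6) and E9 and off at E14, so its levels by age are a description and carry no test. In the RefSeq annotation of the assembly GRCg7b, AGO3, AGO1 and AGO4 are consecutive genes, between TEKT2 and LOC112530225.

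Dicer is the ribonuclease that cuts hairpin precursors into microRNA duplexes of a short fixed length. An Argonaute protein takes up 1 strand of such a duplex and uses it to find messenger RNAs, which are then repressed or decayed with the help of TNRC6 proteins and the CCR4-NOT deadenylase. In mammals AGO2 is the Argonaute best known for cutting a target directly, while AGO1, AGO3 and AGO4 act mainly through those partners. In the mouse retina, loss of Dicer is known to disturb the timing with which progenitors give rise to the different neurons.

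Retinas of 8 ages were dissociated with papain, and 6 cells were from E3, 3 from E4, 5 from E5, 10 from E6, 1 from E7, 6 from E9, 8 from E14 and 2 from E15. Uncultured cells were picked singly by pipette, and cDNA primed with oligo dT and amplified by 35 cycles of PCR went on 1 Affymetrix chicken array a cell. The labels name no strain, sex or embryo, so the cells of an age count as 1 sample and no test compares 2 ages. Values are log2 MAS5 signals, and means were taken after raising lower signals to a floor of log2 5.004, the median of the whole table.

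Detection in a cell meant a signal no lower than the 80th percentile of its array, so about a fixed share of probe sets is detected on each. That level lay between log2 5.47 and 7.28 on 35 arrays. All 3 arrays of E4, both of E15 and that of E6 replicate 7 had medians between 6.82 and 7.88, against 3.90 to 5.50 on the others, and their detection level lay between 8.45 and 9.81. These 6 are called arrays of high background. The ganglion cell and early neuron list had cell means between 5.10 and 8.33 at E3, between 10.60 and 12.24 over E6 and E9, and between 10.91 and 13.00 at E14. Among its genes STMN2, NEFM and RBPMS2 were detected in every E6, E9 and E14 cell. Others in the list were not. ISL1 was detected in 8 of 10, 3 of 6 and 3 of 8 of those cells, POU4F2 in 2, 1 and 4, EBF1 in 3, 0 and 2, and GAP43 in 0 at each age. DCX was detected in 10, 6 and 5. Cycling genes had cell means between 6.07 and 11.81 at E3, 5.84 and 8.04 at E6, 5.84 and 7.15 at E9, and 5.39 and 6.31 at E14. These genes differed among themselves. CCNA2 was detected in 6 of 10 E6, 3 of 6 E9 and 5 of 8 E14 cells and RRM1 in 7, 3 and 4, while MKI67 and BUB1B were detected in 0 at each age. By these list means, cells at E6, E9 and E14 were thus mostly neurons, while most E3 cells carried transcripts of dividing cells. Other ages differed again. Of gene and cell pairs in the cycling list, 87.0% were detected at E4 and 94.4% at E7, against 18.3% at E6. In the photoreceptor and bipolar list 63.6% of such pairs were detected at E15, against 40% or less at every other age.

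AGO4, an Argonaute, was high in every E6 and E9 cell and low in every E14 cell on its more intense probe set, GgaAffx.11377.1.S1_s_at. The 6 E3 cells ran from a lowest signal of 2.81 through a median of 3.64 to a highest of 9.52. The 3 E4 cells had 5.03, 11.96 and 10.16, and the 5 E5 cells had 4.04, 4.54, 1.42, 5.73 and 2.0. The E3 cells lay near or below the floor apart from replicate 6, and all cells titled E5 lay near or below it as well. E6 replicate 1, whose source name gives E5, had 13.74 and is counted at E6 by its title.

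At E6 the 10 cells ran from 10.55 through a median of 13.32 to 15.22. The E7 cell had 12.58, and the 6 E9 cells ran from 12.51 through 13.87 to 14.03. The E14 cells ran from 1.70 through 3.84 to 5.84, and the E15 cells had 6.03 and 10.63. The lowest of the 16 E6 and E9 cells, E6 replicate 9 at 10.55, thus lay above the highest E14 cell at 5.84. Such a separation was seen in 21 of 24981 probe sets (0.0841%), a share given as background only, since AGO4 was chosen for this pattern.

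AGO4 was detected in 1 of 6 cells at E3, 2 of 3 at E4 and 1 of 5 at E5. It was then detected in 10 of 10 cells at E6 (exact 95% interval 69.2 to 100%), in the E7 cell and in 6 of 6 at E9 (54.1 to 100%). At E14 it was detected in 0 of 8 cells (0 to 36.9%), and at E15 in 1 of 2. These Clopper-Pearson intervals cover counting error only and make no allowance for the choice of the gene. Ordered by mean, the ages were E5 (5.15 ± 0.32, SD over 5 cells), E14 (5.25 ± 0.38, 8 cells), E3 (5.78 ± 1.84, 6 cells), E15 (8.33 ± 3.25, 2 cells), E4 (9.05 ± 3.60, 3 cells), E7 (12.58, 1 cell), E6 (13.08 ± 1.64, 10 cells) and E9 (13.62 ± 0.58, 6 cells). Neighbours within the low group E5, E14 and E3, and within the high group E7, E6 and E9, differed by less than their spread over cells.

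The E6 minus E3 difference was 7.31 log2 units, with means of 13.08 at E6 and 5.78 at E3. The E14 minus E9 difference was -8.37, with means of 5.25 at E14 and 13.62 at E9. The E9 minus E6 difference was 0.54, smaller than the SD over E6 cells, and the E14 minus E6 difference was -7.83. Detection in every E6 and E9 cell, without regard to E14, was shared by 2.51% of tested probe sets. With 1 sample at each age these differences have no replicate check.

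**Figure D1:**
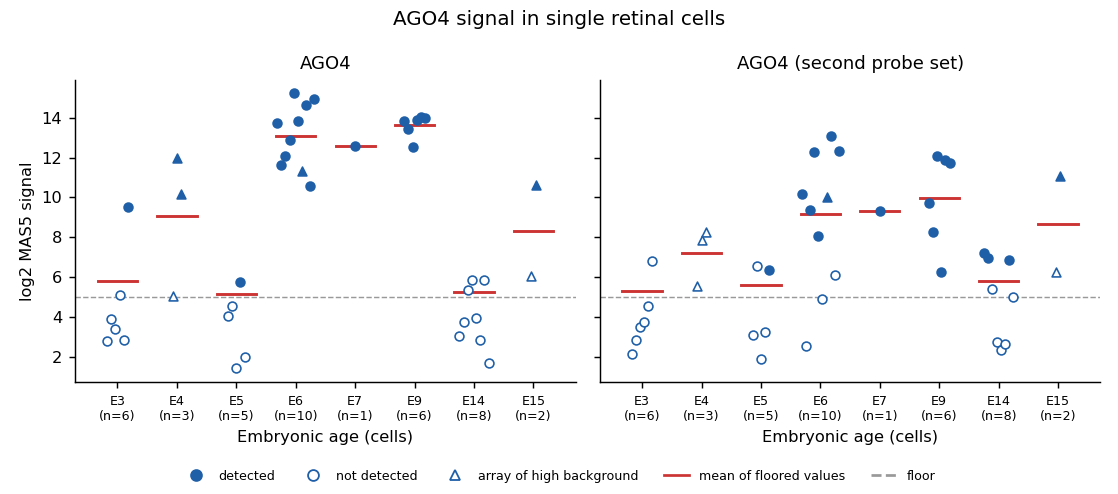
Log2 MAS5 signal of the 2 AGO4 probe sets (y axis) in each cell by embryonic age (x axis); filled points are detected cells, triangles are arrays of high background, red lines are means of floored values and the dashed line is the floor. On the left probe set the E6 and E9 cells lie at 10.55 or above and the E14 cells at 5.84 or below; on the right one the separation is partial.

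The second AGO4 probe set, GgaAffx.1501.7.S1_s_at, also had its 3 lowest means at E3, E5 and E14 and its 3 highest at E6, E7 and E9, with more spread. At E6 its 10 cells ran from 2.53 through a median of 9.71 to 13.07, and 7 were detected. At E9 the 6 cells ran from 6.26 through 10.72 to 12.06, and all 6 were detected. At E14 the 8 cells ran from 2.32 through 5.20 to 7.23, and 3 were detected, at 7.23, 6.93 and 6.84. Here the ages overlapped: E6 replicates 2, 6 and 9, with 2.53, 4.89 and 6.11, and E9 replicate 4, with 6.26, lay among the E14 cells although their signals on the other probe set were 11.64, 13.84, 10.55 and 13.88. The E6 mean of 9.15 ± 3.02 stood 3.85 above the E3 mean of 5.30 ± 0.73 (SD, n = 10 and 6 cells), and the E14 mean of 5.80 ± 1.01 differed by -4.19 from the E9 mean of 9.99 ± 2.36 (SD, n = 8 and 6 cells). The 2 probe sets were detected together in 15 of 41 cells and both missed in 15, with a Pearson correlation of 0.75 over the 41 cells, given as a description.

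All 7 member probe sets bear the suffix _s_at, which in Affymetrix naming marks probes that can match more than 1 transcript, and Argonaute genes are close paralogs. How far 1 Argonaute contributes to the signal of another was not tested. On the array, GgaAffx.1501.7 (AGO4), GgaAffx.1501.1 (AGO3) and GgaAffx.1501.3 (AGO1) share a design number.

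AGO4 signal did not run along the division between cycling and neuronal cells. E5 replicates 1, 2 and 3 had ganglion cell and early neuron means of 12.01, 12.19 and 10.83 and AGO4 signals of 4.04, 4.54 and 1.42. The E14 cells had neuron means of 10.91 to 13.00 and AGO4 signals of at most 5.84. In the other direction, the E7 cell had the highest cycling mean of all 41 cells, 12.53, with a neuron mean of 6.12 and an AGO4 signal of 12.58. E3 replicate 6, with a cycling mean of 11.81, had an AGO4 signal of 9.52, and E5 replicates 4 and 5, with cycling means of 10.99 and 10.65, had 5.73 and 2.0. Across the 41 cells AGO4 had a Pearson correlation of 0.27 with the neuron list and -0.14 with the cycling list, as a description of cells that share age and array.

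**Figure D2:**
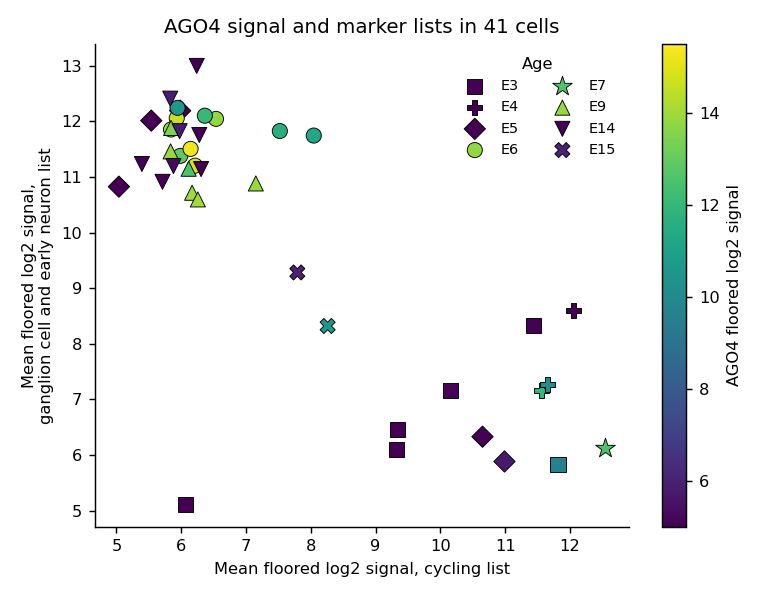
Each point is 1 of the 41 cells, placed by its mean floored log2 signal over the cycling list (x axis) and over the ganglion cell and early neuron list (y axis), shaped by age and coloured by its floored log2 AGO4 signal. Dark points (AGO4 near the floor) and light points (AGO4 high) occur among the neuronal cells at the upper left, and the E7 cell at the lower right has a high AGO4 signal.

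Several other measures also moved with age. The excess of the 3′ over the 5′ actin control signal, a sign of RNA or cDNA length, was 6.65 ± 1.98 log2 units in the 6 E3 cells (SD), 5.07 ± 1.41 in the 3 E4 cells, 2.50 ± 1.12 in the 5 E5 cells, 1.94 ± 1.55 in the 10 E6 cells, 1.27 ± 0.53 in the 6 E9 cells and 3.08 ± 0.80 in the 8 E14 cells. The list of blood, microglia and vessel genes, with 11 of 12 genes on the array, had cell means of 5.73 to 9.31 at E3, 5.43 to 7.65 at E6, 5.69 to 6.42 at E9 and 6.35 to 7.76 at E14. In it HBAD, a globin, was detected in 1 of 10 E6 cells, 0 of 6 E9 cells and 6 of 8 E14 cells, and HBA1, another globin, in 3, 2 and 8 of those cells. HBZ, also a globin, ran otherwise, with detection in 2, 3 and 1 of those cells. Globins were detected at E3 as well, HBAD in 6 of 6 cells, HBA1 in 4 and HBZ in 3. PECAM1, an endothelial marker, was detected in 2 of 10 E6, 4 of 6 E9 and 1 of 8 E14 cells, while CDH5, another endothelial marker, and PTPRC, a leukocyte marker, were detected in 0 cells of the 3 ages. Of the E6, E9 and E14 cells, COL1A1, a collagen gene, was detected in 10, 5 and 8, PDGFRB, a pericyte marker, in 5, 3 and 7, the antigen presentation gene CD74 in 3, 2 and 1, and CSF1R, a microglial receptor, in 1, 0 and 1. Pigment epithelium and lens genes, all 11 on the array, had cell means of 5.61 to 8.12 at E6, 5.66 to 6.54 at E9 and 5.78 to 6.91 at E14. The crystallin CRYBA4 was detected in 7 of 10 E6, 4 of 6 E9 and 8 of 8 E14 cells. Other crystallins ran otherwise, with CRYBB1 in 7, 2 and 6 and CRYAB in 4, 2 and 3 of those cells. The pigment epithelium markers RPE65 and TYRP1 were detected in 0 of 41 cells. Other pigment epithelium markers were detected, BEST1 in 8, 1 and 2 and MLANA in 4, 2 and 5 of the E6, E9 and E14 cells, and MITF in 6 of all 41 cells. The part of these measures in the AGO4 pattern was not tested.

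DICER1, the microRNA-producing ribonuclease, was detected in part of the cells at E6 and E9 on 1 of its 2 probe sets, with high and low cells at the same age. On its probe set GgaAffx.23420.2.S1_s_at the 6 E3 cells ran from 1.16 through a median of 4.88 to 7.30, the E4 cells had 5.07, 8.26 and 6.88, and the E5 cells had 2.54, 4.80, 1.94, 2.18 and 5.85. The 10 E6 cells ran from 1.65 through 10.82 to 13.97, the E7 cell had 2.89, and the 6 E9 cells ran from 4.35 through 8.41 to 11.88. The 8 E14 cells ran from 1.21 through 4.50 to 8.97, and the E15 cells had 15.00 and 9.26. By the ages in the titles, no cell before E6 reached the high E6 and E9 cells, which lay at 10.67 or above. The cell at 10.67 was E6 replicate 1, whose source name gives E5, so the statement rests on its title.

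At E6 the signal was 10.67, 13.79, 11.66, 10.98, 13.97 and 12.95 in replicates 1, 2, 3, 4, 6 and 10 and at most 5.97 in the other 4. At E9 it was 11.38, 11.40 and 11.88 in replicates 2, 3 and 4 and at most 5.44 in the other 3. No E6 or E9 cell lay between 5.97 and 10.67, so within these 2 ages signals on this probe set fell in 2 separate ranges. Cells of other ages lay between them, such as E14 replicates 6 and 8 at 8.97 and 7.65. Detection was 2 of 6 cells at E3 (4.33 to 77.7%, exact 95% interval), 6 of 10 at E6 (26.2 to 87.8%), 3 of 6 at E9 (11.8 to 88.2%) and 2 of 8 at E14 (3.19 to 65.1%). At E15 it was 1 of 2. The intervals cover counting error within these cells only, and the shares were not tested between ages.

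The DICER1 mean was 9.50 ± 3.82 at E6 and 5.73 ± 0.92 at E3 (SD, n = 10 and 6 cells), a difference of 3.76. It was 8.35 ± 3.52 at E9, a difference of -1.15 from E6, and 6.04 ± 1.53 at E14, a difference of -2.31 from E9 and -3.46 from E6. The E14 minus E9 difference fell short of 2 log2 units in size without E9 replicate 2 (-1.71), 3 (-1.70) or 4 (-1.61). As the mean of both DICER1 probe sets, the E14 minus E9 difference (-1.10) and the E14 minus E6 difference (-1.94) also fell short of that size. A difference of at least 2 log2 units upward from E3 to E6 was found for 10.7% of all tested probe sets, and among the 7 member probe sets for both AGO4 sets and this DICER1 set. Both AGO4 sets and this DICER1 set were also lower by that size at E14 than at E9, against 10.1% of all tested probe sets, and at E14 than at E6, against 7.06%. At E9 against E6, 0 members were higher by that size (5.66% of all) and 0 lower (1.81%). These shares are background, since the members were chosen with these ages in view.

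The second DICER1 probe set, Gga.12004.1.S1_s_at, was detected in 0 of 41 cells. Its highest signal was 8.50, in E6 replicate 7, an array of high background with a detection level of 9.26, and its E9 cells all lay below the floor. The 2 DICER1 probe sets thus disagreed in the 9 E6 and E9 cells where the first was high.

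**Figure D3:**
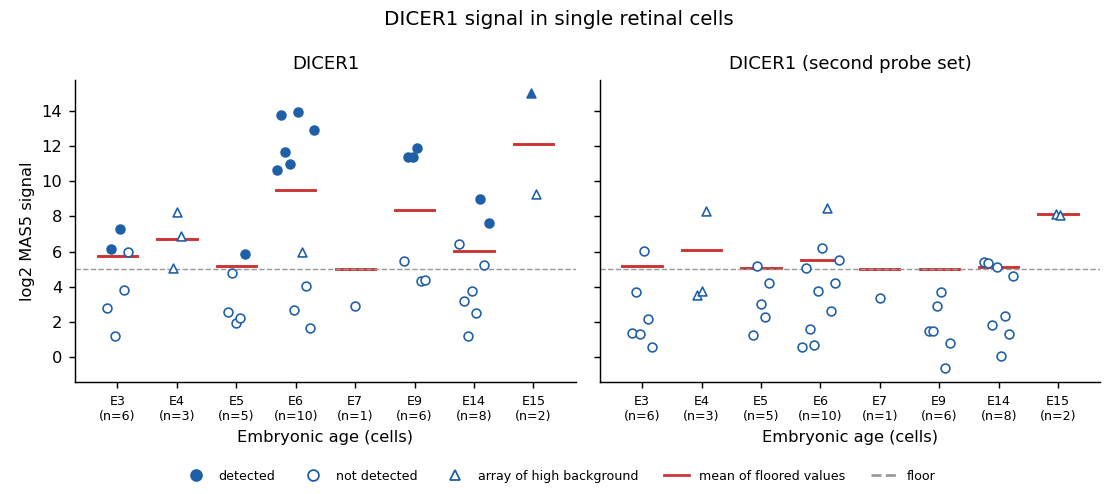
Log2 MAS5 signal of the 2 DICER1 probe sets (y axis) in each cell by embryonic age (x axis), with symbols as in the AGO4 plot. On the left probe set 6 of 10 E6 cells and 3 of 6 E9 cells lie at 10.67 or above and the others at 5.97 or below; on the right probe set no cell is detected.

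AGO3 was low in nearly all cells and high in a few single ones. On GgaAffx.1501.1.S1_s_at, E3 replicate 6 had 13.27 against at most 4.26 in the other 5 E3 cells, and E5 replicate 5 had 14.24 against at most 3.81 in the other 4 E5 cells. E6 replicate 9 had 12.90 against at most 3.91 in the other 9, and E9 replicate 6 had 10.91 against at most 4.84 in the other 5. The highest E14 signal was 5.55, and the E15 cells had 9.63 and 8.66 on arrays with detection levels of 9.61 and 9.81. Outside the arrays of high background AGO3 was therefore detected in 4 cells, 1 each at E3, E5, E6 and E9.

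Of these 4 cells, E3 replicate 6 and E5 replicate 5 had cycling means of 11.81 and 10.65, and E6 replicate 9 and E9 replicate 6 had neuron means of 12.24 and 10.60. The second AGO3 probe set, GgaAffx.11873.1.S1_s_at, was detected in 1 of 41 cells, E9 replicate 6, at 9.06. In the 3 other cells it had 5.76, 4.35 and 5.93, so E9 replicate 6 alone was detected on both sets, and at a detection level of the 90th percentile its second set was not detected. E6 replicate 9, with AGO3 at 12.90, also had the lowest AGO4 signal of the 10 E6 cells on the first AGO4 probe set.

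AGO1, the Argonaute between AGO3 and AGO4 in the genome, was at or near the floor nearly everywhere. Its 1 probe set had signals above the floor in 10 of 41 cells and was detected in 1 cell, E5 replicate 4, at 5.65 against a detection level of 5.63. Its highest signals were 8.88 and 7.18 at E15 and 7.46 at E4, all on arrays of high background. Because oligo dT priming favours 3′ ends, low signals leave the presence of a transcript unknown.

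**Figure D4:**
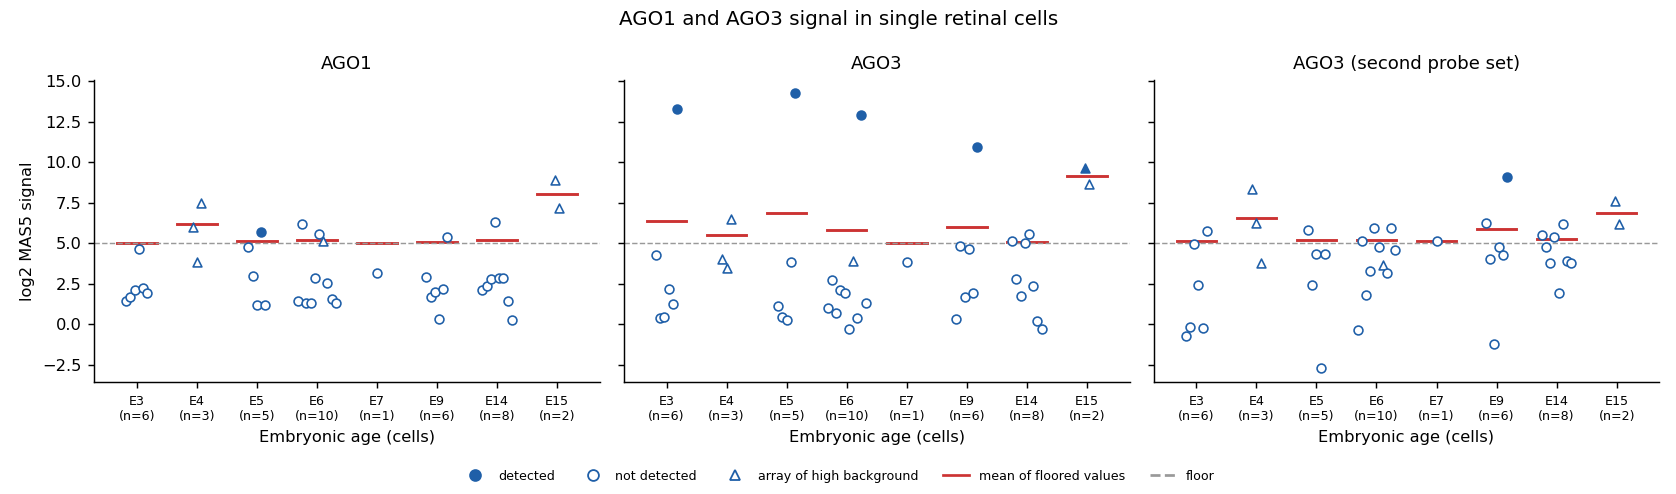
Log2 MAS5 signal of the AGO1 probe set and the 2 AGO3 probe sets (y axis) in each cell by embryonic age (x axis), with the same symbols as the AGO4 plot. Single cells with AGO3 at 10.91 to 14.24 stand apart from others of their age at E3, E5, E6 and E9, and AGO1 stays near the floor outside the arrays of high background.

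Taken per cell, with any probe set of a gene counted, 0 of 41 cells had all 4 genes detected and 1 cell, E5 replicate 5, had 3. None of the 4 genes was detected in 10 cells, 3 each at E3, E5 and E14 and 1 at E4. Of the 16 E6 and E9 cells, 9 had both AGO4 and DICER1 on their first probe sets, 7 had AGO4 without DICER1, and 0 had DICER1 without AGO4. As AGO4 was on in each of these 16 cells, its pairing with DICER1 there follows from its own level. The 2 E6 and E9 cells with AGO3 were both among the 7 without DICER1. Over all ages, DICER1 was detected in 2 of the 5 cells with AGO3, E5 replicate 5 and E15 replicate 2, beside 15 of 41 cells in all. Over 41 cells the correlation of AGO4 with DICER1 was 0.41, and that of AGO3 with DICER1 was -0.06, both as descriptions.

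The slope of signal on embryonic day was the 1 contrast with a test, limma over the 8 age means. The ages differed in the kinds of cell picked, by the marker lists, so age and kind of cell cannot be told apart in this slope. Of 24981 probe sets, 33 rose (0.132%) and 0 fell (0%) past a limma adjusted p of 0.05, while 880 had a positive and 291 a negative slope with an unadjusted p below 0.05. Of the 7 member probe sets, 4 passed the filter on low values. Of these, 2 were of AGO4, which was chosen for its levels by age and is left out of the count of calls. DICER1 and AGO3 were not called. DICER1 had a slope of 0.09 ± 0.13 log2 units per day (SE, 8 ages; limma adjusted p = 0.9999) and AGO3 one of -0.02 ± 0.09 (limma adjusted p = 0.9999). The AGO4 slopes, given without a test, were -0.14 ± 0.18 and 0.02 ± 0.14 for its 2 probe sets, and a straight line does not describe a gene that was high in the middle ages. AGO1 and the second probe sets of AGO3 and DICER1 did not pass the filter.

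Genes that act around Argonaute and Dicer were read from 5 lists, with 58 of 70 genes on the array and 50 tested. Of these 50, 0 were called in either direction, and in limma 1, TSN, had an unadjusted p below 0.05, with a negative slope. The median slope was -0.09 for nuclear processing and export, -0.08 for Dicer partners and loading, 0.01 for silencing effectors, -0.02 for let-7 control and turnover and 0.00 for PIWI proteins, against 0.02 over all tested probe sets. From E9 to E14, 9 of the 50 genes were lower by at least 2 log2 units and 4 were higher, beside 10.1% and 3.4% of all tested probe sets. From E3 to E6, 4 were higher and 5 lower, beside 10.7% and 5.94%. These step shares cover all tested probe sets and are not matched to the list genes, each read from its probe set of highest mean. As a rough background for the detection counts below, all tested probe sets were detected in 29.6% of probe set and cell pairs at E3. It is not matched to list genes, which were read from their probe set of highest mean, tested or not. That share was 29.7% at E6, 30.2% at E9 and 29.9% at E14.

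In nuclear processing, DROSHA, the ribonuclease that releases the precursor hairpin, was detected in 6 of 41 cells, and its partner DGCR8 in 3, both named after their values were seen. XPO5, which carries precursors out of the nucleus, was detected in 33 cells and RAN, the GTPase it works with, in 37. At E3, E6, E9 and E14 the XPO5 means were 13.39, 10.40, 11.03 and 9.83, with a slope of -0.24 ± 0.16 (SE). The helicases DDX5 and DDX17 were detected in 40 and 37 cells. ADARB1, an RNA-editing enzyme, was detected in 9 cells, 4 of them among the 6 at E9, with a slope of 0.22 ± 0.11 (limma adjusted p = 0.9999).

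Among Dicer partners and loading factors, the chaperones HSP90AA1, HSPA8 and FKBP4 were detected in 41, 40 and 37 cells. Their slopes were 0.03 ± 0.08, -0.08 ± 0.11 and -0.16 ± 0.14. AHSA1, a co-chaperone of HSP90, had means of 9.37, 8.59, 12.13 and 7.50 over those ages. The Dicer-binding proteins TARBP2 and PRKRA had no probe set under those symbols and were not analysed here.

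Among silencing effectors, PABPC1, the poly(A) binding protein, was detected in 41 cells, FXR1 in 34 and the helicase MOV10 in 33. TNRC6A, which Argonautes recruit, had means of 7.55, 6.33, 6.52 and 10.35 over E3, E6, E9 and E14, with a slope of 0.18 ± 0.16. EIF4ENIF1, a translational repressor, had a slope of -0.17 ± 0.17 and LSM1, a decapping factor, 0.13 ± 0.15. Of the 23 silencing effectors tested, 3 were at least 2 log2 units higher at E6 than at E3 and at least 2 lower at E14 than at E9. They are named here, with CNOT2, after their values were seen. Singly, these steps were found for 10.7% and 10.1% of all tested probe sets. The share with both was not computed, so the count of 3 has no background. CNOT8, a catalytic subunit of the deadenylase, was detected in 0 of 6 cells at E3, 2 of 3 at E4 and 0 of 5 at E5. It was detected in 8 of 10 cells at E6, 0 of 1 at E7, 6 of 6 at E9, 0 of 8 at E14 and 1 of 2 at E15. Its means over E3, E6, E9 and E14 were 5.22, 9.92, 11.46 and 5.43. TNRC6B had means of 5.05, 8.75, 10.98 and 6.69 at those 4 ages, and the helicase HELZ 6.63, 9.90, 10.10 and 6.30. CNOT2, another subunit of the deadenylase, ran otherwise, with means of 13.13, 6.45, 10.34 and 10.78 and detection in 6 of 6, 2 of 10, 5 of 6 and 6 of 8 cells. In all, 3 of the 23 effectors were lower at E6 than at E3 by at least 2 log2 units, beside 5.94% of all tested probe sets.

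In the let-7 control and turnover list, TSN, a subunit of the C3PO nuclease that clears passenger strands, had a slope of -0.35 ± 0.16 (limma adjusted p = 0.945) and was detected in 29 cells. CSNK1A1, a kinase of Argonaute, was detected in 36 cells and PPP6C, a phosphatase of it, in 34. XRN2, an exonuclease, had means of 9.37, 10.90, 11.78 and 7.29 over E3, E6, E9 and E14. LIN28A, which blocks let-7 processing, was detected in 7 cells and LIN28B in 0, both named after their values were seen. In the list of PIWI and Tudor domain proteins, the Argonaute relative PIWIL1 was detected in 8 cells, TDRD3, a Tudor protein of many tissues that partners TOP3B, in 22 and TDRD7 in 4, with slopes of 0.00 ± 0.08, 0.11 ± 0.16 and -0.07 ± 0.08.

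**Figure D5:**
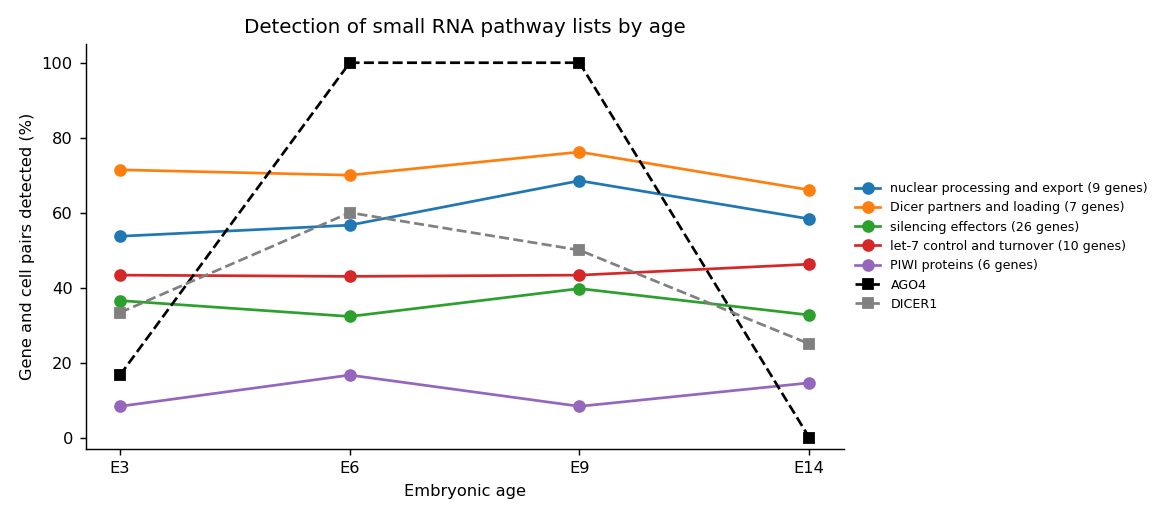
Percent of gene and cell pairs detected (y axis) at the 4 ages with 6 or more cells (x axis) for the 5 small RNA lists, with the first probe sets of AGO4 and DICER1 as dashed lines. AGO4 is detected in 100% of E6 and E9 cells and 0% of E14 cells, while the averages over whole lists, whose genes differ among themselves, lie between 32.3% and 39.7% for silencing effectors and between 66.1% and 76.2% for Dicer partners and loading. Over all tested probe sets the share lies between 29.6% and 30.2% at these ages. List shares count every gene of a list on the array, tested or not, so this share is not matched to them.

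The genes most like AGO4 over the 41 cells, by Pearson correlation of floored signals, were STMN3, a stathmin of neurons (0.92), IDH1, cytosolic isocitrate dehydrogenase (0.89), NCKAP1, a subunit of the WAVE actin regulator (0.89), ARPC1A, a subunit of the Arp2/3 complex (0.86), and WSB1 (0.86). IDH1 had means of 13.21 at E6 and 12.58 at E9 and lay at the floor in all E3, E5 and E14 cells. The first AGO4 probe set and those of NCKAP1 and IDH1 were the 3 detected in every E6 and E9 cell and in no E14 cell, 0.012% of those tested. AGO4 was chosen for this pattern, so its place among them follows from the choice. Its second probe set was detected in 7 of 10 E6 and 3 of 8 E14 cells. Without the arrays of high background the 5 correlations lay between 0.89 and 0.96 over 35 cells.

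Likeness to DICER1 was lower, at 0.73 for FAM177A1, 0.68 for FAM188A, 0.67 for USP49, a ubiquitin protease, 0.66 for SEZ6L and 0.64 for AVL9. For AGO3 it was 0.77 for SDAD1, 0.70 for FAM133B, 0.68 for FBXO39, 0.66 for POC1B, a centriole protein, and 0.65 for LRSAM1, while AGO3 itself was detected in 5 of the 41 cells. The genes most like AGO1 were TRIP12, ATP5J2, NEB, SLC9A7 and ID2, with 0.88 to 0.89 over 41 cells. Without the arrays of high background these AGO1 correlations lay between 0.01 and 0.31, so they rest on those arrays. For every member, AGO4 included, the 5 genes were picked as the highest among the tested probe sets. That choice alone favours high values, and no test was run on them.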

How the data were processed

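The deposited table holds log2 MAS5 signals (the submitters' processing notes name MAS5 without a version) for 38535 probe sets on 41 arrays. Each array had a 2% trimmed mean of linear signal between 500 and 500.2, so arrays were not rescaled. The 96 control probe sets were left out. Symbols came from the platform annotation supplied with the data, which gave 27178 probe sets 1 symbol, 177 several and 11180 none. Titles gave each cell's age, and E6 replicate 1, whose source name gives E5, was kept at E6. The series text speaks of 39 cells. The members and gene lists were chosen with earlier results of these data known.

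Probe sets detected in at least 3 cells were kept. The 8 age means, weighted by cells, were fitted on day with limma 3.58.1 in R 4.3.3 (eBayes with a trend, 6 residual and 78.7 prior degrees of freedom), with Benjamini-Hochberg adjustment over all 24981 probe sets. Variance pooled over probe sets dominates the p-values, which measure the spread of age means around a line, which may be technical. The fit was also run on simulated data, with known slopes added after the values of each probe set were shuffled over cells. Shuffling removes what the cells of an age or the probe sets of an array share, so that run cannot speak to slopes arising from it. Genes with several probe sets in the lists were read from the one with the highest mean. Named list genes were the 3 with the smallest p and the 3 detected in most cells, and for each member the 5 most correlated genes. Arrays give no counts, so the number of cells limits the precision. No sequence of the members was used here.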

Additional observations from a re-analysis of the deposited data

Results flagged for a closer look

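In groups of 4 to 10 cells, a cell was singled out where its gap to the nearest other cell was too large a share of the group's range (Dixon's 95% value). Of 35 groups of cells (7 probe sets at 5 ages), 6 had such a cell. The rate of 1 in 20 behind Dixon's value assumes normal values, while the deposited signals used here include many below the floor. The share over all probe sets was not computed, so the count of 6 has no background. For AGO3 these were E3 replicate 6 at 13.27 (next cell 4.26), E5 replicate 5 at 14.24 (next 3.81) and E6 replicate 9 at 12.90 (next 3.91). E3 replicate 6 also stood apart for AGO4, at 9.52 (next 5.12). For AGO1 these were E14 replicate 4 at 6.28 (next 2.83, below the floor) and E3 replicate 4 at 4.61 (next 2.21), and in both cells AGO1 was not detected. All 6 E3 cells lie below the floor for AGO1, where signals have no order, so nothing is read from the last of these.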

How the results depend on the processing

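No probe set of AGO1, AGO3 or DICER1 was called on the slope in any alternative run in which it passed the filter. AGO4 slopes are given without a test. The DICER1 slope of 0.09 turned to -0.038 without the arrays of high background, -0.0093 without E4 replicate 1 and E15 replicate 2 together and -0.025 without E15, and ranged from 0.0032 to 0.12 when single cells were left out. It moved further upward, to 0.50 without E14 and 0.30 with equal weights. The AGO3 slope of -0.02 turned to 0.026 with a floor at the 25th percentile, 0.064 with no floor, 0.11 with equal weights and 0.16 without E14, and ranged from -0.062 to 0.035 when single cells were left out, turning without E3 replicate 6 (0.035) or E5 replicate 5 (0.015); without all 4 cells of high AGO3 signal, an alternative chosen after seeing the data, it missed the filter. The AGO4 slope was -0.39 without E3 and 0.50 without E14, and 0.40 without E14 on its second probe set. The count of 33 called probe sets became 2 with a floor at the 25th percentile, 0 with no floor, quantile normalization, a common 75th percentile, equal weights, no trend, without E4 and without every array of high background, 55 with no filter, 79 without E4 replicate 1 and E15 replicate 2 together and 53 with E6 replicate 1 at E5. Leaving out whole ages gave 6 (E3), 20 (E5), 120 (E6), 16 (E7), 81 (E9) and 9 (E14) calls, and there were 15 to 65 when single cells were left out, with 52, 51 and 51 without E4 replicate 1, E6 replicate 4 and E9 replicate 6, 15 to 21 without E14 replicates 1, 2, 5, 6, 7 or 8, and 65 and 64 without E15 replicates 2 and 3.

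The AGO4 difference from E9 to E14 (-8.37) was -9.37 with a floor at the 25th percentile, -9.60 with no floor and -6.28 as the mean of its probe sets, and that from E6 to E14 (-7.83) was -9.06 and -5.59 with no floor and as that mean. As the mean of its probe sets, the DICER1 difference was 2.06 from E3 to E6, -1.10 from E9 to E14 and -1.94 from E6 to E14. Both falls were then short of 2 log2 units in size. With either probe set AGO4 was detected in 3 of 8 E14 cells. At the 90th percentile its second probe set was detected in 3 of 6 E9 and 0 of 8 E14 cells, and DICER1 in 0 of 6 E3 cells, as above the background percentile of the array. The median of all tested probe sets shifted by 0.27 from E3 to E6, -0.28 from E6 to E9, 0.10 from E9 to E14 and -0.23 from E6 to E14; each difference given exceeded or fell short of 2 log2 units alike after taking it off. No paired analysis was possible because the fit runs over age means, which carry no replicate number. A signal near the floor has no order, which limits AGO1 and the second probe sets of AGO3 and DICER1.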
